A study of Mus with 17 samples.

Results

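Chemokines are small secreted proteins that guide leukocytes through tissue, and chemokine receptors are the receptors, coupled to inhibitory G proteins, through which those cells read them. A few atypical receptors bind chemokines without that signal and clear them. In liver the family is known for drawing monocytes, T cells, natural killer cells and neutrophils into injured tissue, and for holding resident and patrolling cells in the sinusoids. Members were taken from the deposited count tables by symbol, as every row named Ccl, Cxcl, Cx3cl, Xcl, Ccr, Cxcr, Cx3cr, Xcr or Ackr with a number and at most 1 further letter. This gave 61 genes, 39 ligands and 22 receptors, of 24937 genes with values.

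The libraries came from whole, snap-frozen liver of male C57BL6/JBomTac mice, 1 library per mouse. Western diet mice (n = 8) ate that diet and drank water with fructose at 42 g/L for 52 weeks, a regimen the labels describe as inducing advanced steatohepatitis. Chow mice (n = 9) were of matched age, ate standard chow and drank plain water, and all mice were fasted overnight before death. The mice carried no transgene or deletion, and the pieces of tissue were not sorted into cell types, so that fewer cells of a type and less RNA per cell cannot be told apart. No pairing between mice of the diets is given.

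Library totals were 3604212 to 9071908.5 counts. Levels are given as CPM, a gene's counts relative to the total of its library after scaling between libraries. A gene with no count in a library could still reach 3 counts there, or 0.314 to 0.850 CPM depending on the library, for counting error only. The 5 hepatocyte markers (Alb and others) summed to 6263 to 10340 CPM on western diet and 8098 to 10730 CPM on chow, and none of them was at 0. Western diet replicate 5 and chow replicate 2 carried pancreatic transcripts, 3159 and 9400 CPM over 6 markers, where no other library of western diet exceeded 167.6 CPM and no other of chow 307.2 CPM. Western diet replicate 5 also held the most T cell marker RNA of its diet (67.4 CPM over 5 genes, next highest 19.6) and the most B cell marker RNA (132 CPM over 4 genes, next highest 53.01). Among chow libraries, replicate 8 was the highest in both, at 16.2 and 64.7 CPM. The sums of 9 markers listed for monocytes and infiltrating macrophages did not overlap between the diets. They were 906 to 1330 CPM on western diet and 269 to 451 CPM on chow. All 9 rose, where 24.8% of all tested genes did, and 8 stood wholly above chow, as did 6.98% of all tested genes. Ly6c2 overlapped, at 1.54 to 10.1 CPM on western diet and 0.438 to 3.66 CPM on chow. Whether the other 8 mark infiltrating cells alone was not tested. Spp1, 1 of the 9, is also a bile duct marker, with medians of 355 CPM on western diet and 76.2 CPM on chow. Sums of 6 resident Kupffer cell markers overlapped, at 514 to 981 CPM on western diet and 345 to 602 CPM on chow. Single markers went opposite ways: 3 rose, 2 fell and 1 did not pass, where 24.8% of all tested genes rose and 23.6% fell. Cd5l, Clec4f and Vsig4 rose, and Cd163 and Marco fell. Cd5l had a median of 365 CPM on western diet and 170 CPM on chow, and Cd163 2.45 and 43.4 CPM. The part of these cells in the results that follow was not tested.

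Most chemokines and receptors that could be tested stood higher in western diet liver, led by the axes that guide monocytes. The fractalkine receptor Cx3cr1 rose 6.91-fold, the monocyte attractant Ccl2 7.47-fold and its receptor Ccr2 5.44-fold (n = 8 and 9), whereas the homeostatic ligand Cxcl12 was 1.57-fold lower. Of the 61 members, 31 passed the low count filter and entered the test, 17 ligands and 14 receptors. Among the ligands 10 rose, 2 fell and 5 did not pass, and among the receptors 10 rose, 1 fell and 3 did not pass (edgeR's quasi-likelihood test, adjusted p under 0.05, Benjamini-Hochberg adjusted over 13204 genes). Over all genes tested, 24.8% rose and 23.6% fell. The median log2 difference was 1.50 over the tested members, 1.52 for ligands and 1.21 for receptors, and −0.0091 over all tested genes. In 12 members the lowest western diet library exceeded the highest chow library, as in 6.98% of all tested genes, and in 2 the western diet libraries all lay below those of chow, as in 5.05% of all tested genes. The filter keeps genes with about 1.50 CPM in at least 8 libraries, and 13 of the 31 members had fewer than 8 chow libraries at that level. Chow libraries alone would not have let these 13 in, and 9 of them rose. Among them Ccl24, Cxcr3, Cxcr5, Cxcr6 and Xcr1 had fewer than 8 western diet libraries at that level too. The other 18 reached it in at least 8 chow libraries as well; 11 of these rose and 3 fell. The 23 members that rose or fell kept their calls when single libraries were left out, in all 17 such fits.

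**Figure D1:**
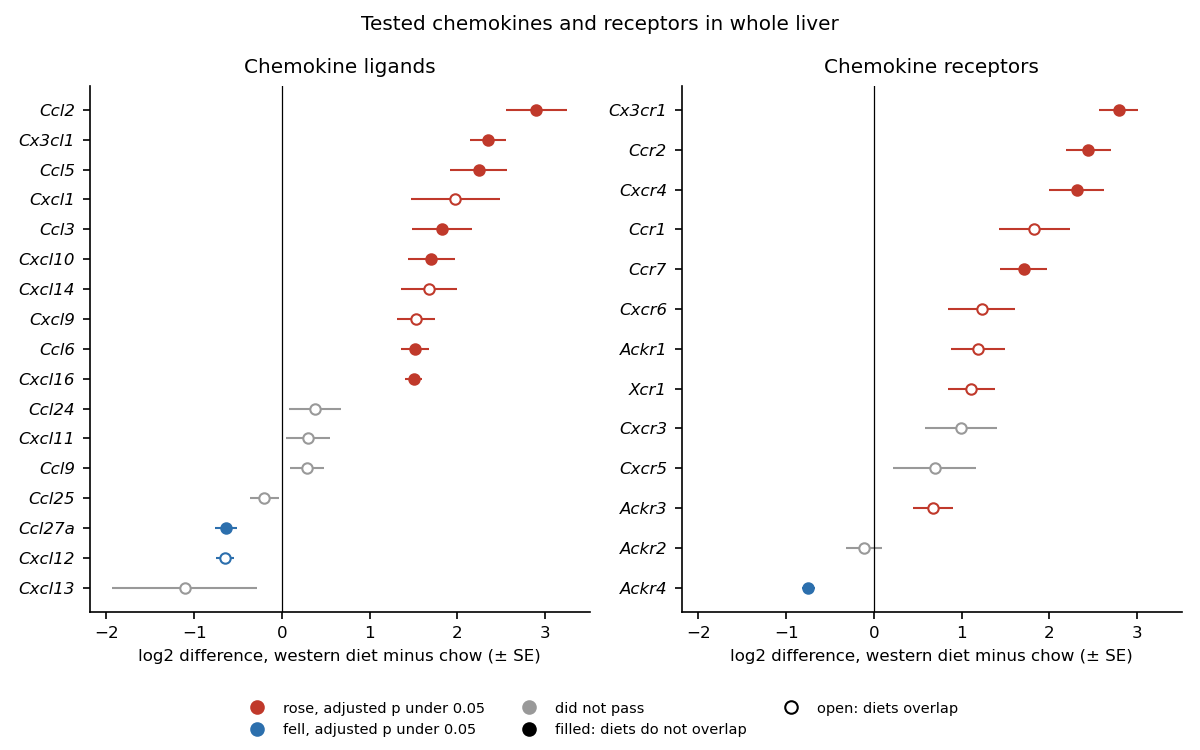
Log2 difference between western diet (n = 8) and chow (n = 9), with its standard error, for 30 of the 31 tested members, ligands on the left and receptors on the right, ordered by size. Red points rose, blue points fell and grey points did not pass; filled points have no overlap between the diets. Ccl2 (2.90) and Cx3cr1 (2.79) lie farthest to the right, and Ccl27a, Cxcl12 and Ackr4 are the members that fell.

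The Ccl2 and Ccr2 axis, which releases inflammatory monocytes from marrow and draws them into tissue, was higher on both sides. Ccl2 ran from 5.95 CPM through a median of 9.25 to 22.1 CPM on western diet, against 0 to 2.89 CPM with a median of 1.50 on chow. No western diet library came down to the chow range; the highest was western diet replicate 1 and the lowest western diet replicate 3. The fitted log2 difference was 2.90 ± 0.35 (± SE, adjusted p = 2.27e-06). Ccr2, the receptor on those monocytes, lay between 10.4 and 35.02 CPM with a median of 24.3 on western diet, against 1.90 to 8.55 CPM with a median of 4.13 on chow. Again the diets did not overlap, and western diet replicate 3 was the lowest of its diet (log2 difference 2.44 ± 0.26, adjusted p = 5.35e-07). The other ligands of the receptor were too low to enter the test. Ccl7 had 5 to 14.5 counts per library on western diet and 0 to 3.5 on chow, without overlap between the diets. Ccl12, a rodent ligand of Ccr2, had 1 to 9 counts in western diet libraries against 0 to 2.5 in chow libraries. Ccl8 overlapped widely, with 0 to 41.5 counts in western diet libraries against 1 to 24 in chow libraries.

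Fractalkine and its receptor both rose. Cx3cl1, a chemokine made as a membrane-bound adhesion molecule, held 5.21 to 15.9 CPM on western diet (median 11.7) and 1.23 to 3.27 CPM on chow (median 2.42). Every western diet library was above every chow library, at a log2 difference of 2.35 ± 0.20 (adjusted p = 2.77e-08). Cx3cr1, the receptor of patrolling monocytes and of tissue macrophages, held 10.04 to 35.7 CPM on western diet (median 24.999) and 2.05 to 5.86 CPM on chow (median 3.14). Here too western diet replicate 3 was the lowest of its diet and the ranges stayed apart (2.79 ± 0.22 in log2, adjusted p = 1.75e-08).

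**Figure D2:**
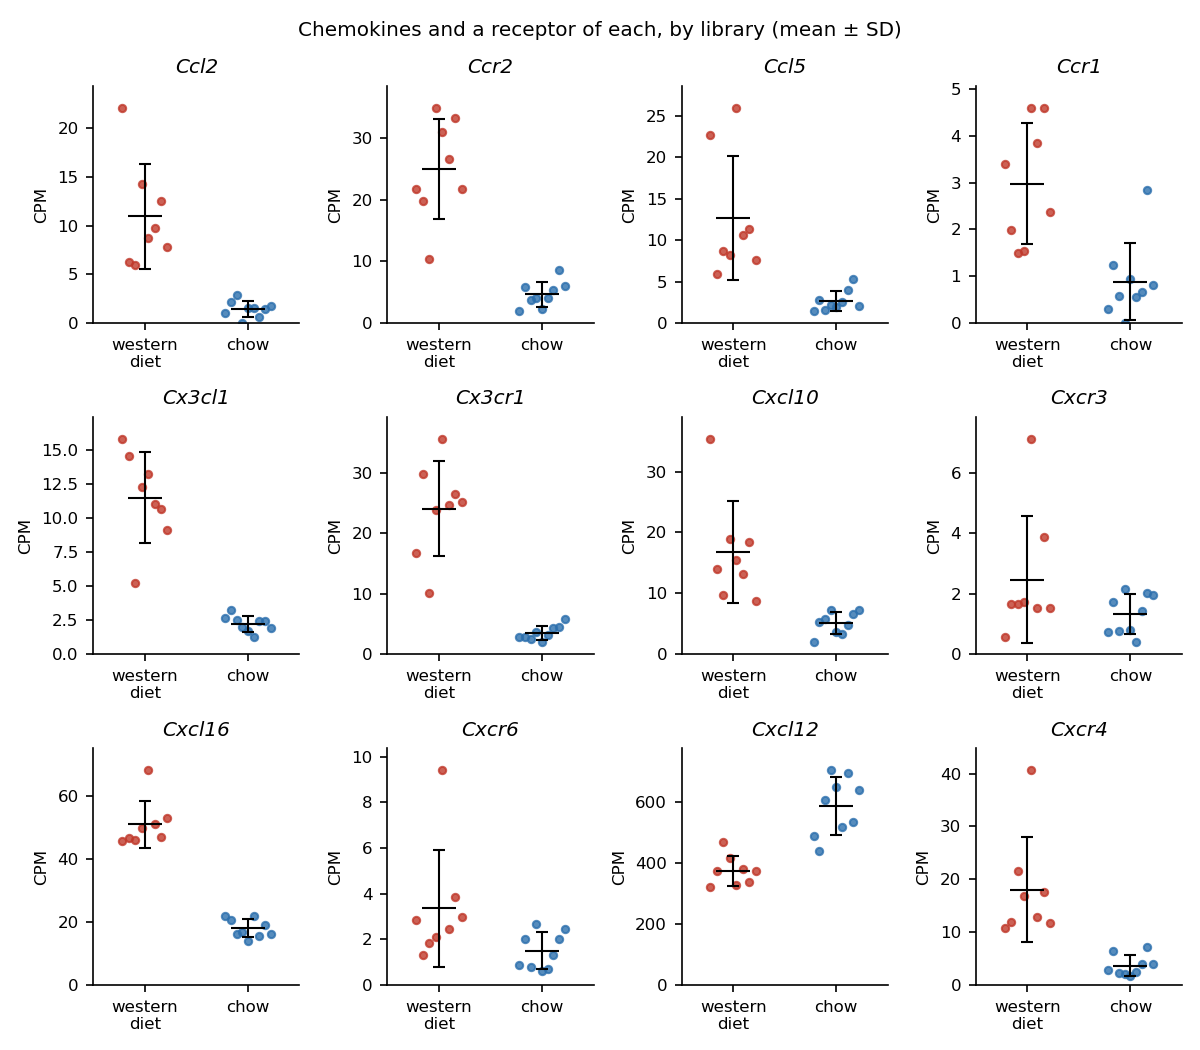
CPM in each library for 6 ligands and 1 receptor of each, western diet (n = 8) left and chow (n = 9) right, with mean and SD as bars. Ccl2, Ccr2, Ccl5, Cx3cl1, Cx3cr1, Cxcl10, Cxcl16 and Cxcr4 do not overlap between the diets, Cxcl12 is the one panel with the western diet mean below the chow mean, and single western diet libraries stand high in Cxcr3, Cxcr6 and Cxcr4.

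Ccl5 and Ccl3, ligands of Ccr1, rose, as did that receptor of neutrophils, monocytes and other leukocytes. Ccl5, made by T and natural killer cells among others, held 5.97 to 26.02 CPM on western diet (median 9.69) and 1.46 to 5.29 CPM on chow (median 2.15). Western diet replicate 5 was the highest, and even the lowest western diet library exceeded the chow range (log2 difference 2.24 ± 0.32, adjusted p = 1.6e-05); without western diet replicate 5 and chow replicate 2 the difference was 1.99. Ccl3, a macrophage inflammatory protein, held 1.70 to 3.22 CPM on western diet (median 2.23) and 0 to 1.23 CPM on chow (median 0.611). That is 6.5 to 27.5 counts per library on western diet and 0 to 9 on chow, with a log2 difference of 1.82 ± 0.34 (adjusted p = 2.07e-04). Its neighbour Ccl4 was under the filter with 4 to 25.5 counts in western diet libraries against 1.5 to 4 in chow libraries. The annotated spans of Ccl3 and Ccl4 overlap by 755 bases, so that reads may be shared between them.

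Ccr1 itself was scarce, with 1.49 to 4.61 CPM on western diet (median 2.89) and 0 to 2.85 CPM on chow (median 0.660). It rose 3.56-fold (adjusted p = 8.9e-04) while the diets overlapped through chow replicate 8, which held 14 counts. Without western diet replicate 5 and chow replicate 2 it did not pass the low count filter.

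Ccl6 and Ccl9 are closely related ligands of Ccr1 that rodents carry side by side; 1 rose and 1 did not pass. Ccl6 held 39.8 to 85.8 CPM on western diet (median 47.5) and 13.2 to 23.6 CPM on chow (median 19.2), which did not overlap (1.52 ± 0.16 in log2, adjusted p = 5.62e-07). Ccl9 held 31.98 to 63.2 CPM on western diet (median 54.7) and 19.7 to 60.7 CPM on chow (median 45.1). Its ranges lay largely on top of each other and its log2 difference of 0.29 ± 0.19 did not pass (adjusted p = 0.229). Whether the 2 differences differ was not tested.

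The interferon-induced ligands Cxcl9, Cxcl10 and Cxcl11 share the receptor Cxcr3 of effector T cells and natural killer cells; 2 of them rose and 1 did not pass. Cxcl9 held 14.6 to 44.6 CPM on western diet (median 25.5) and 4.37 to 17.3 CPM on chow (median 8.87). Western diet replicate 4 and chow replicate 8 crossed, and the log2 difference was 1.53 ± 0.22 (adjusted p = 1.71e-05). Cxcl10 held 8.77 to 35.4 CPM on western diet (median 14.7) and 2.05 to 7.18 CPM on chow (median 5.29). The ranges were separate, with western diet replicate 1 far above the others of its diet (1.70 ± 0.27 in log2, adjusted p = 4.48e-05). Cxcl11 held 1.73 to 5.14 CPM on western diet (median 3.81) and 1.16 to 4.23 CPM on chow (median 3.05), a difference of 0.30 ± 0.25 that did not pass (adjusted p = 0.335). In C57BL/6 mice Cxcl11 is known to carry a frameshift, so its RNA need not give protein. Cxcl10 and Cxcl11 lie within the annotated span of Art3, which did not pass (0.13 in log2, adjusted p = 0.451), at 4.23 to 6.51 CPM on western diet and 4.07 to 7.31 CPM on chow.

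Cxcr3 itself did not pass at 0.99 ± 0.41 in log2 (adjusted p = 0.0505). It held 0.567 to 7.14 CPM on western diet (median 1.67) and 0.410 to 2.15 CPM on chow (median 1.43), with the top value in western diet replicate 5. Its call turned on single libraries: it passed in 9 of the 17 fits with 1 library removed (adjusted p from 0.0277 to 0.208), while without western diet replicate 5 the log2 difference was 0.55 (adjusted p = 0.208). That library held the most T cell marker RNA, and the part of this in the result was not tested.

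Cxcl16 and Cxcr6, a membrane-bound ligand and the receptor of liver-resident T and natural killer T cells, both rose. Cxcl16 held 45.9 to 68.5 CPM on western diet (median 48.6) and 14.01 to 22.1 CPM on chow (median 16.9). The western diet libraries were close to each other apart from replicate 5, the diets were far apart, and the standard error was small (1.50 ± 0.10 in log2, adjusted p = 1.47e-09). Its span overlaps that of Zmynd15 by 552 bases; Zmynd15 also rose (1.13 in log2, adjusted p = 1.03e-07), at 19.98 to 32.2 CPM on western diet and 8.26 to 14.1 CPM on chow. The counts of Cxcl16 were 171% to 231% of those of Zmynd15 on western diet and 123% to 170% on chow. Cxcr6 held 1.33 to 9.44 CPM on western diet (median 2.64) and 0.630 to 2.69 CPM on chow (median 1.32). The diets overlapped, and the 2.34-fold rise was 1.23 ± 0.38 in log2 (adjusted p = 0.0125). It was 0.79 without western diet replicate 5 (adjusted p = 0.0449) and 0.86 without that library and chow replicate 2 (adjusted p = 0.0326). Cxcr6 lies inside the span of Fyco1, which did not pass (−0.15 in log2, adjusted p = 0.0564), at 92.9 to 105.8 CPM on western diet and 90.07 to 124 CPM on chow.

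Cxcl12, which retains haematopoietic cells and lymphocytes and is made by stellate and endothelial cells, was the ligand that fell while its receptors rose. It held 321 to 468 CPM on western diet (median 372) and 438 to 706 CPM on chow (median 608). The diets overlapped only where western diet replicate 3 reached above chow replicate 2 (−0.65 ± 0.10 in log2, adjusted p = 3.05e-05). Cxcr4, its signalling receptor, held 10.8 to 40.8 CPM on western diet (median 14.9) and 1.73 to 7.12 CPM on chow (median 2.92), without overlap. It rose 4.97-fold (adjusted p = 9.17e-06), with western diet replicate 5 the highest of its diet and chow replicate 8 the highest of its own. Ackr3, the atypical receptor that takes up Cxcl12, held 1.70 to 5.53 CPM on western diet (median 3.50) and 1.16 to 3.46 CPM on chow (median 2.64). That was a 1.59-fold rise with overlapping ranges (adjusted p = 0.0205). Stellate cell and fibroblast markers summed to 605 to 910 CPM on western diet and 441 to 553 CPM on chow over 5 genes, and all 5 of those rose; of 5 markers of sinusoidal endothelium 2 rose and 2 fell, with 24.8% and 23.6% of all tested genes doing so.

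Among neutrophil attractants Cxcl1 was the one high enough to test, and it rose. Cxcl1, the main ligand of Cxcr2 in mice, held 9.48 to 129 CPM on western diet (median 19.1) and 5.91 to 19.2 CPM on chow (median 8.88). Western diet replicates 4 and 6 stood far above the others at 129 and 65.96 CPM, and the diets overlapped. The log2 difference was 1.97 ± 0.51 (adjusted p = 0.0043) and 1.36 without western diet replicate 4. Of the other ligands, counts of Cxcl5 were 2 to 15 on western diet against 0 to 2.5 on chow, and those of Cxcl2 were 3 to 19.5 on western diet against 0 to 7.5 on chow. Counts of their receptor Cxcr2 were 1 to 21 on western diet against 0 to 6 on chow. Its sister receptor Cxcr1 was lower, at 0 to 1.5 counts per western diet library (6 counts in all) against 2.5 to 8 per chow library (37.5 in all). The neutrophil markers summed to 15.9 to 81.7 CPM on western diet and 5.75 to 12.2 CPM on chow over 5 genes, without overlap. All 3 that were tested rose, where 24.8% of all tested genes did. Of these Csf3r alone had no overlap, at 12.5 to 19.6 CPM on western diet and 3.30 to 7.10 CPM on chow. S100a8 and S100a9 overlapped between the diets, and Mpo and Ly6g were under the low count filter.

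Of the receptors and ligands that organise lymphoid tissue, Ccr7 rose, and Cxcr5 and Cxcl13 did not pass. Ccr7, which leads dendritic cells and naive T cells to lymph nodes, held 3.08 to 9.90 CPM on western diet (median 3.81) and 0.683 to 2.44 CPM on chow (median 1.61). The diets did not overlap, with western diet replicate 5 the highest (1.71 ± 0.27 in log2, adjusted p = 2.99e-05, and 1.52 without that library and chow replicate 2). Its ligands were scarce: Ccl19 had 1 to 22.5 counts in western diet libraries against 0 to 8 in chow libraries, and Ccl21a had 0 to 27 on western diet and 3 to 10 on chow. Ccl21b and Ccl21c, near-identical copies of Ccl21a, were at 0 in all 17 libraries, so the split between copies is uncertain. Cxcr5, the B cell receptor for follicles, held 1.15 to 12.9 CPM on western diet (median 2.20) and 0.731 to 5.29 CPM on chow (median 1.93). It did not pass (0.69 ± 0.47 in log2, adjusted p = 0.239), and without western diet replicate 5 its difference was −0.023. B cell markers passed in 0 of 4 genes, and western diet replicate 5 held the most of their RNA in its diet; the part of this in the result was not tested. Its ligand Cxcl13 was uneven within both diets, with 0.237 to 29.2 CPM on western diet (median 1.69) and 1.57 to 40.7 CPM on chow (median 4.89). The difference of −1.11 ± 0.83 in log2 did not pass (adjusted p = 0.286); western diet replicates 3 and 5, at 29.2 and 14.6 CPM, were the highest of their diet, and without western diet replicate 3 it was −1.96 (adjusted p = 0.0569).

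Xcr1, the receptor of cross-presenting dendritic cells, rose 2.16-fold, with 1.35 to 3.77 CPM on western diet (median 3.08) and 0.772 to 2.28 CPM on chow (median 0.956). The ranges overlapped (adjusted p = 0.00211), and the dendritic cell markers, of which Xcr1 is itself 1, summed to 37.2 to 71.4 CPM on western diet and 11.2 to 20.1 CPM on chow over 5 genes. Itgax was the largest part of the western diet sum, with a median of 33.9 CPM there and 5.38 CPM on chow. It rose 5.69-fold, whereas Flt3 rose 2.69-fold and Clec9a 2.05-fold, and Cd209a was under the filter. Xcl1, the ligand of Xcr1, had 1 to 8.5 counts in western diet libraries against 0 to 4 in chow libraries. Ccl22, made by dendritic cells and macrophages, had 6 to 32 counts in western diet libraries against 0 to 14 in chow libraries, whereas Ccl17, which shares its receptor Ccr4, had at most 1 count on western diet and 1.5 on chow. Ccr4 had 0 to 6 counts in western diet libraries against 0 to 2.5 in chow libraries.

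The remaining tested ligands were Cxcl14, which rose, Ccl27a, which fell, and Ccl25 and Ccl24, which did not pass. Cxcl14, a chemokine of epithelium without an agreed receptor, held 6.51 to 47.3 CPM on western diet (median 13.05) and 3.74 to 7.16 CPM on chow (median 4.72). Western diet replicate 4 stood far above the rest, the diets met at their edges, and the log2 difference was 1.68 ± 0.32 (adjusted p = 3.32e-04) and 1.24 without that library. Ccl27a, best known as a skin chemokine, held 4.62 to 9.30 CPM on western diet (median 8.23) and 9.97 to 13.01 CPM on chow (median 12.3). All western diet libraries lay below all chow libraries (−0.64 ± 0.13 in log2, adjusted p = 3.41e-04). Reads of Ccl27a can be shared with its near-identical copy Ccl27b, which had 1 count on western diet and 4 on chow in all. Ccl25, known from gut and thymus, held 2.27 to 5.09 CPM on western diet (median 3.66) and 2.93 to 5.91 CPM on chow (median 4.48), and its difference of −0.20 ± 0.17 did not pass (adjusted p = 0.337). Ccl24, an attractant of eosinophils, held 0.744 to 3.08 CPM on western diet (median 1.89) and 0.772 to 2.86 CPM on chow (median 1.26), and did not pass either (0.38 ± 0.30 in log2, adjusted p = 0.310). The eosinophil receptor Ccr3 had 1 to 13 counts in western diet libraries against 0 to 3 in chow libraries.

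The 4 atypical receptors went different ways, and for 1 of them the count may not be its own. Ackr1, which carries inflammatory chemokines across venules and on red cells, held 1.42 to 4.23 CPM on western diet (median 2.27) and 0.546 to 2.28 CPM on chow (median 0.814). It rose 2.28-fold with overlapping ranges (adjusted p = 0.00366); 1612 of its 1618 bases lie within the annotated span of Cadm3, which also rose (0.37 in log2, adjusted p = 0.00655), at 8.06 to 11.9 CPM on western diet and 6.46 to 9.13 CPM on chow. The counts of Ackr1 were 11.9% to 47.1% of those of Cadm3 on western diet and 7.76% to 27.7% on chow. Ackr2, which degrades inflammatory CC chemokines, held 2.55 to 8.08 CPM on western diet (median 5.82) and 3.05 to 9.34 CPM on chow (median 7.01). Its difference of −0.11 ± 0.21 did not pass (adjusted p = 0.694) and was 0.024 with library size alone in place of the scaling factors. Ackr4, which removes Ccl19, Ccl21 and Ccl25, held 11.5 to 15.3 CPM on western diet (median 14.4) and 22.4 to 25.6 CPM on chow (median 22.6). All western diet libraries lay below all chow libraries, 1.68-fold lower (adjusted p = 1.17e-07).

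The whole 28962-base span of Ackr4 lies within that of Acad11, an acyl-CoA dehydrogenase gene. Acad11 was at 458 to 608 CPM on western diet (median 584) and 815.5 to 1025 CPM on chow (median 923), and its log2 difference of −0.71 was close to the −0.75 ± 0.073 of Ackr4. The counts of Ackr4 were 2.20% to 2.60% of those of Acad11 on western diet (median 2.48%) and 2.33% to 2.76% on chow (median 2.52%), so that the ratio overlapped between the diets while both levels did not. The strand setting of the counting is not given in the sources used here, and reads of the 2 genes cannot be told apart. This comparison was chosen after the values were seen.

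**Figure D3:**
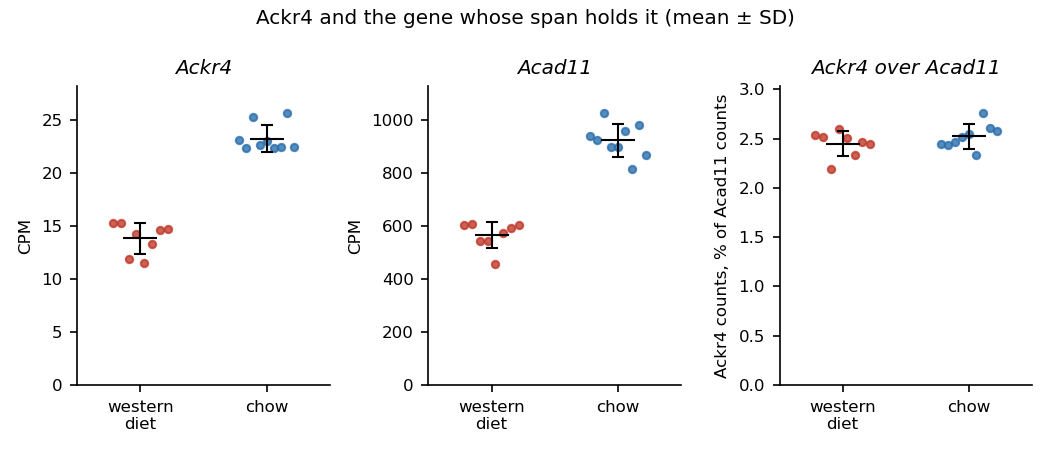
CPM of Ackr4 (left) and Acad11 (middle), and the counts of Ackr4 as a percentage of those of Acad11 (right), in each library, western diet (n = 8) left and chow (n = 9) right in each panel, with mean and SD as bars. Both levels are separate between the diets, and the percentages, 2.20 to 2.60 on western diet and 2.33 to 2.76 on chow, overlap.

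The 30 members under the low count filter were read from a fit with no filter. In it 58 members were tested, and 31 rose and 4 fell, against 18.1% and 16.3% of the 20211 genes then tested. Of the 27 that the filter had kept out, 11 rose, 1 fell and 15 did not pass. The 11 were Ccl20, Ccl12, Ccr8, Cxcl5, Ccl4, Ccl7, Ccr3, Ccl22, Cxcr2, Cxcl2 and Xcl1, and the 1 that fell was Cxcr1. Ccl20, which draws cells with the receptor Ccr6, had 1 to 14.5 counts on western diet (45 in all) and 0 in 8 of the 9 chow libraries (1 count in all); its log2 difference in that fit was 4.57 ± 0.76 (adjusted p = 5.17e-05). Ccr6 itself had 2 to 34.5 counts in western diet libraries against 1 to 13 in chow libraries, and did not pass (adjusted p = 0.425). Ccl4 and Cxcl5 passed at adjusted p = 6.74e-06 and adjusted p = 2.93e-04, and Ccl4, Ccl7 and Cxcl5 had no overlap between the diets in CPM. In the fit with no filter, every western diet library was above every chow library in 956 of 20211 genes, and below in 735. Cxcr1 fell by 2.20 ± 0.50 (adjusted p = 0.00136). Ccr8 rested on 11 counts on western diet and 1.5 on chow. Among those that did not pass were the eotaxin Ccl11 (26 counts in all on western diet, 28 on chow), Ccl28 (34 and 41) and the gut receptor Ccr9 (45.5 and 40), as well as Ccr10, whose span overlaps that of Cntnap1. Ccl1, Ccl17, Ccl27b, Cxcl3, Cxcl15 and Cxcl17 had at most 4.5 counts in all on either diet. Ccl21b, Ccl21c and Ccl26 had no count in any library, which allows up to 3 counts in each.

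**Figure D4:**
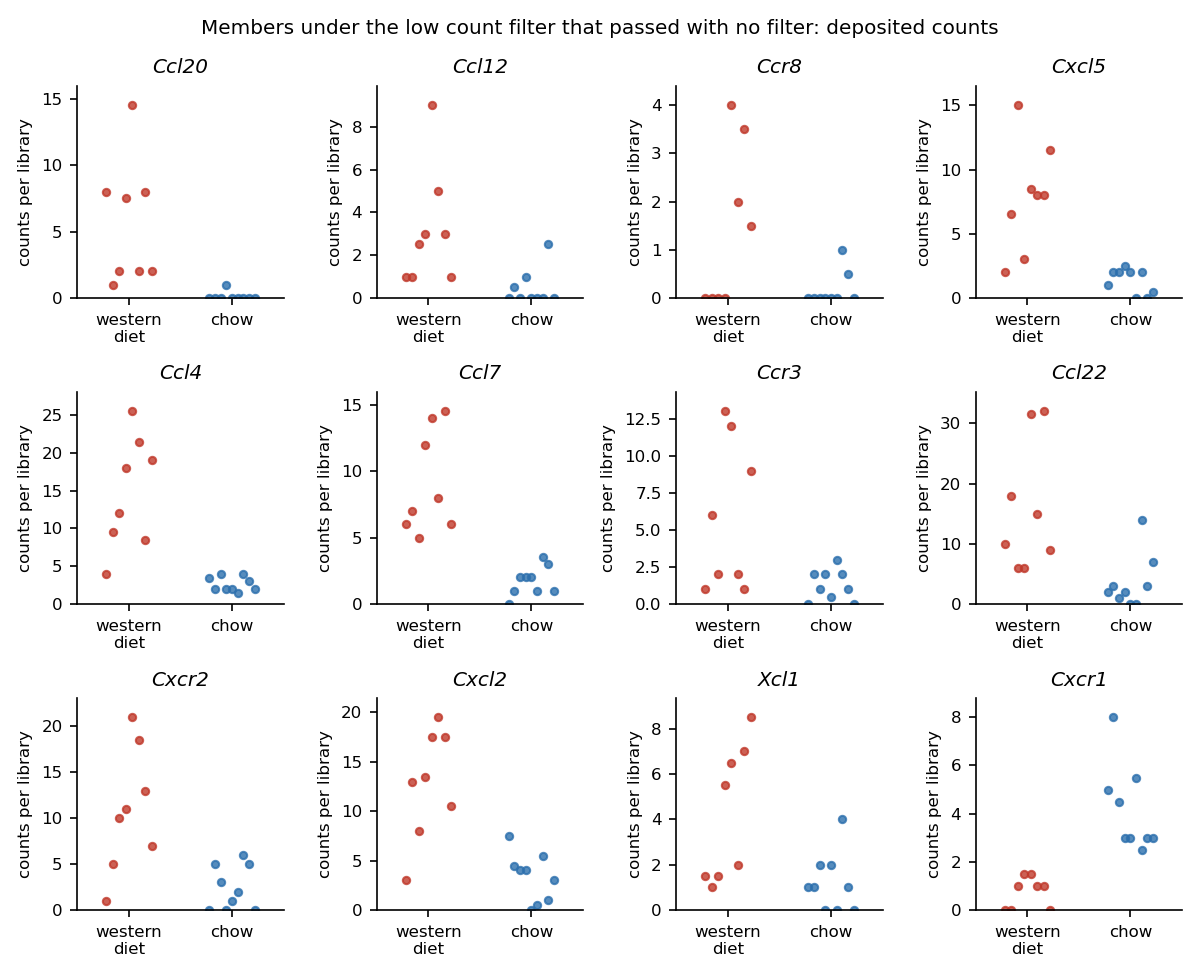
Deposited counts per library, not scaled for depth, of the 12 members under the low count filter that passed in the fit with no filter, western diet (n = 8) left and chow (n = 9) right. Ccl20 is at 0 in 8 of the 9 chow libraries, and Cxcr1 is the panel with the higher counts on chow.

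Many members sit in clusters of neighbouring genes, given here on the mouse assembly GRCm38.p6 (mm10) as spans of whole genes. On chromosome 11, 82035577 to 82179812 holds Ccl2, Ccl7, Ccl11, Ccl12, Ccl8 and Ccl1, and of these 6 genes 3 rose in the fit with no filter, in which 18.1% of all genes rose and 16.3% fell. Further along, 83525778 to 83664683 holds Ccl5, Ccl9, Ccl6, Ccl3 and Ccl4, of which 4 rose, Ccl9 being the exception. On chromosome 5, 90759298 to 90905938 holds Cxcl5, Cxcl3, Cxcl15, Cxcl1 and Cxcl2, of which 3 rose, and 92321331 to 92363296 holds the Cxcr3 ligands, of which 2 rose. The receptors Ccr1, Ccr3 and Ccr2 share 123962126 to 124109140 on chromosome 9, and all 3 rose in that fit. Just before them lie Ccr9, Cxcr6 and Xcr1, from 123767211 to 123862029. Of these Cxcr6 and Xcr1 rose in that fit and Ccr9 did not pass (adjusted p = 0.619), so the count depends on where the cluster is cut. Cxcl12 lies alone on chromosome 6, 117168535 to 117181368, and Ackr4 on chromosome 9, 104097682 to 104126643.

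Mice of a diet differed in which axis was high. Western diet replicate 5 was the highest of its diet in 14 of the 31 tested members, 9 of them receptors, and western diet replicate 4 in 7, among them Cxcl1, Cxcl14, Ccl6 and Ccr2. Western diet replicate 1, the shallowest library, was the highest in Ccl2, Cx3cl1, Cxcl10 and Ackr4. Western diet replicate 3 was the lowest of its diet in 11 members, 9 of them among the 20 that rose. On chow, replicate 8 was the highest in 10 members, 8 of them receptors. Without western diet replicate 5 and chow replicate 2, 19 members rose and 3 fell, and the difference in the count was Ccr1, which then did not pass the low count filter.

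**Figure D5:**
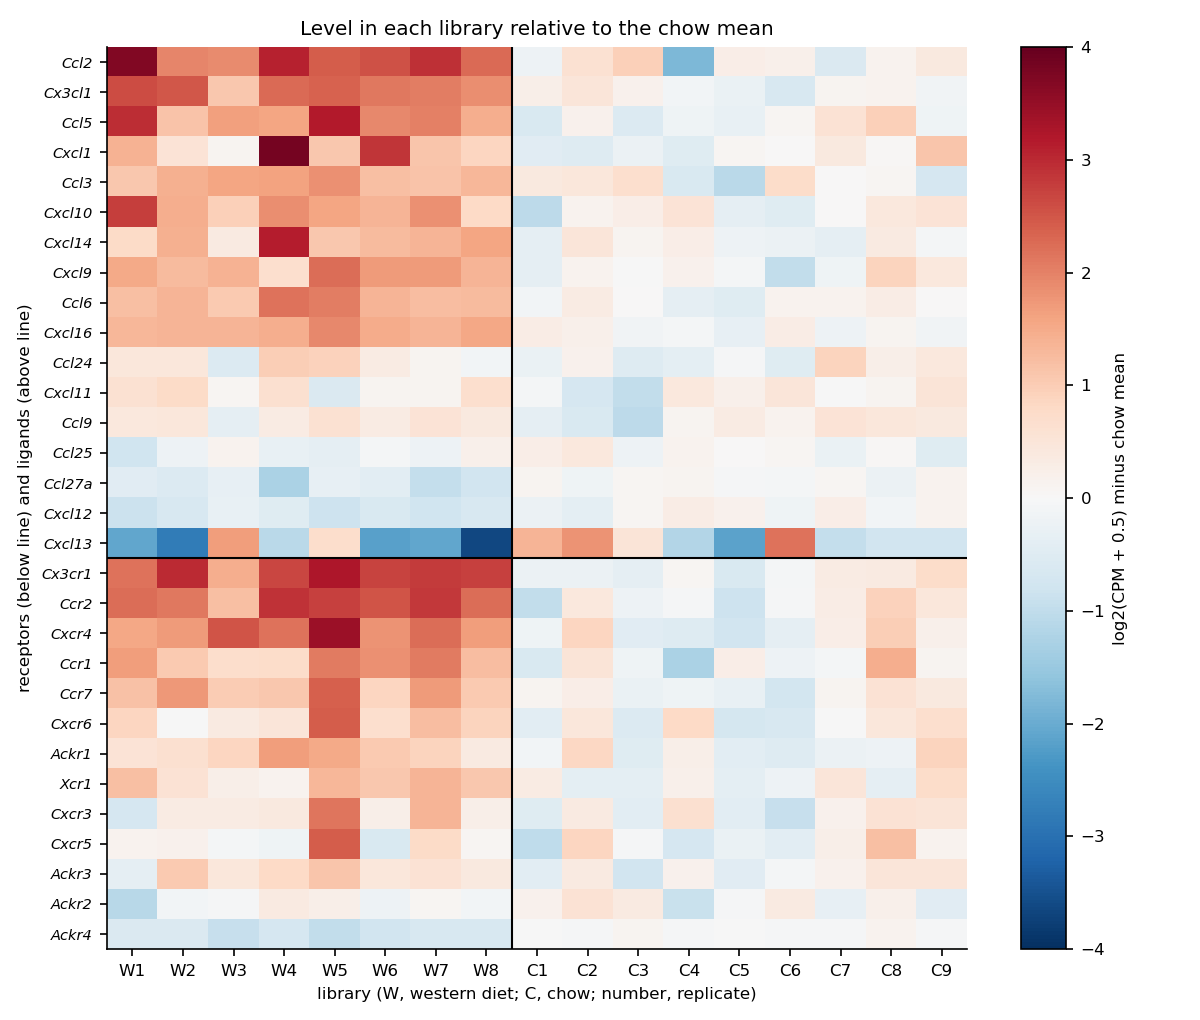
Log2(CPM + 0.5) of 30 of the 31 tested members in each library minus the chow mean of that member, western diet libraries (W1 to W8) left of the line and chow libraries (C1 to C9) right, ligands above the line and receptors below, each ordered by log2 difference. The upper rows of both blocks are red across all western diet libraries, W5 is darkest in the lymphocyte receptors Cxcr3, Cxcr5 and Cxcr6, and Cxcl13 varies within both diets.

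Genes of the signalling machinery behind the receptors rose as well. Of 51 tested genes of a list of G protein subunits, kinases, exchange factors, integrins and regulators, 37 rose, 0 fell and 14 did not pass, with a median log2 difference of 0.96 against −0.0091 over all tested genes, of which 24.8% rose and 23.6% fell. None passed as lower by DESeq2 or limma-voom either; at an unadjusted p under 0.05 the count of lower genes was 0 by edgeR and 1 by DESeq2. That gene was the G protein subunit Gnai3, at 156 to 227 CPM on western diet and 172 to 232 CPM on chow, which passed only in the fit without western diet replicate 3 (−0.19 in log2, adjusted p = 0.0163; −0.14 with all libraries, adjusted p = 0.108). Rgs1, a brake on chemokine receptor signals in lymphocytes, rose 6.61-fold (6.24 to 43.2 CPM on western diet, 0.538 to 6.69 CPM on chow, adjusted p = 2.41e-05), and Rgs2 rose 3.27-fold (adjusted p = 3.76e-09). Rac2 and Dock2, which drive leukocyte migration, rose 2.60-fold and 2.62-fold, and the integrin subunit Itgb2, needed for arrest on endothelium, 2.68-fold (adjusted p = 5.61e-07). The broadly expressed Rac1 was at 190 to 217 CPM on western diet and 193 to 213 CPM on chow (adjusted p = 0.709), and the G protein subunit Gnb2 at 160 to 196 CPM on western diet and 155 to 185 CPM on chow (adjusted p = 0.728). With library size alone in place of the scaling factors, Gnb2 rose and Rac1 did not pass. Without western diet replicate 5 and chow replicate 2, 35 genes of the list rose, Itga4 and Rgs14 no longer passing; leaving out single libraries, Itga4 lost its call in 11 of 17 fits and Rgs14 in 2.

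A further list, called relatives here, held genes with other symbols that are linked to the family by name or function. Not all of them are chemokines or chemokine receptors. Of 13 tested, 6 rose, 2 fell and 5 did not pass, where 24.8% of all tested genes rose and 23.6% fell. Platelet factor Pf4, a CXC chemokine of platelets, rose 3.09-fold (2.44 to 6.69 CPM on western diet, 0.472 to 2.65 CPM on chow, adjusted p = 4.76e-05), and the chemerin-binding receptors Ccrl2 and Cmklr1 rose 1.98-fold and 1.89-fold. Chemerin itself, Rarres2, was at 239 to 399 CPM on western diet and 222 to 305 CPM on chow (adjusted p = 0.0919). Cd74, a surface receptor of the cytokine Mif and the chaperone of MHC class II, rose 2.93-fold, while Mif did not pass (0.13 in log2, adjusted p = 0.143). Dpp4, a peptidase that trims and inactivates several chemokines, was at 185 to 236 CPM on western diet and 174 to 248 CPM on chow (adjusted p = 0.374). Both that fell were Cmtm genes, Cmtm4 by 0.97 in log2 (adjusted p = 2.41e-07) and Cmtm8 by 0.17 (adjusted p = 0.0458). Cmtm8 lost its call in 12 of the 17 fits with 1 library removed. Cmtm3 and Cmtm7 rose 1.76-fold and 2.22-fold, and Cmtm6 did not pass.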

How the data were processed

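Per the labels' protocols, RNA of pulverised liver was extracted with phenol and chloroform and RNeasy columns, made into NEBNext Ultra libraries and sequenced in pairs on a NovaSeq instrument. The submitters' processing notes name MultiQC, FastQC, HOMER, the aligner STAR (version 2.4.1c) and the build mm10. Their options, the strand setting, the annotation and the treatment of duplicate or multiply matched reads: not given in the sources used here. The authors deposited unscaled expected counts for each symbol in steps of 0.5, 29.4% to 33.7% of them not whole. They were rounded for the fits, and CPM of tested genes come from the rounded counts. Of 24940 genes, 3 had no value and were left out.

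Diet was taken from the treatment label, since the source name is the same for all 17 samples. No 2 libraries of a diet agreed within sampling noise (chi-square per degree of freedom at least 3.76 over 64 pairs). edgeR 4.0.16 in R 4.3.3 was used with filterByExpr, TMM factors, robust dispersions and glmQLFTest, two-sided, with Benjamini-Hochberg adjustment at 0.05 over all 13204 genes tested. Log2 differences are western diet minus chow (prior count 0.125), and each SE is that difference over the square root of F. Steps were tested on drawn counts with known changes. The values of 1 tested receptor are not reported here, though it stands in the counts; members and lists were chosen with earlier results of these data known. Alternatives were RLE factors, library size alone, no filter, a filter keeping genes with 1 CPM in 8 or more libraries, DESeq2 1.42.0, limma-voom (limma 3.58.1), doubled counts, leaving out each library, and leaving out western diet replicate 5 and chow replicate 2. All 61 members matched the RefSeq gene table of GRCm38.p6 by symbol. Levels of different genes were not compared, since transcript lengths were not used here. A planned look at promoter motifs was not made. Python 3.11.15, numpy 2.4.6, pandas 2.3.3 and matplotlib 3.10.9 made tables and plots. Named genes are the other members, the tested ones by CPM and the others by deposited counts.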

Additional observations from a re-analysis of the deposited data

Results flagged for a closer look

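Groups of libraries (1 member in 1 diet, leaving out members with fewer than 3 counts in every library) were screened for an outlying library. Of 104 groups, 19 had a library whose gap to its neighbour passed a cut-off on its share of the range of its diet. That cut-off flags about 1 in 20 groups when values are normally distributed. Low counts are not so distributed and the groups share mice, so the 19 cannot be set against that rate. On western diet, replicate 5 stood above the others in Cxcr5 (12.9 CPM, next 3.77), Cxcr4 (40.8, next 21.6), Cxcr6 (9.44, next 3.87), Ccr7 (9.90, next 6.14), Ccr6 (3.97, next 1.83), Ccl19 (2.59, next 1.31) and Cxcl16 (68.5, next 53.2). Replicate 4 stood above in Cxcl1 (129 CPM, next 65.96) and Cxcl14 (47.3, next 15.9), and replicate 1 in Cxcl10 (35.4, next 18.9). Replicate 3 stood above in Cxcl5 (2.79 CPM, next 1.36) and below in Ccl9 (31.98, next 52.1). On chow, replicate 8 stood above in Ccl8 (4.89 CPM, next 1.32), Ccr1 (2.85, next 1.25), Ccr6 (2.65, next 1.30), Ccr10 (1.43, next 0.569) and Ccl12 (0.509, next 0.179), replicate 9 in Cxcl1 (19.2, next 11.7) and replicate 4 in Ccl20 (0.179, 1 count, all others at 0). Ccl20, Ccl12, Ccr10, Ccr6 and Ccr1 in the chow libraries rest on 1 to 14 counts.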

How the results depend on the processing

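No paired analysis was possible because no number or litter in the labels links mice of both diets. Over the 31 tested members and the alternatives in which each could be tested, 762 log2 differences kept their direction and side of the threshold, 10 moved past the threshold, all of Cxcr3, and 2 changed sign, Ackr2 with library size alone (0.024) and Cxcr5 without western diet replicate 5 (−0.023, against up to 0.92 without chow replicate 8); neither passed in either fit. With no low count filter 18 ligands rose in place of 10 and 2 receptors fell in place of 1, since more members were tested. With library size alone, which moved the median of all genes to 0.12, 1 member had every western diet library below chow in place of 2, and 1 relative of the family fell in place of 2, as also without western diet replicate 5 and chow replicate 2. Library size alone also raised the signalling genes that rose from 37 to 44 and the relatives that rose from 6 to 9, with Gnb2, Mif and Rarres2 among those added. Leaving out single libraries, 10 ligands rose and 2 fell in each fit, 10 to 11 receptors rose and 1 fell, 12 to 14 members had all western diet libraries above chow and 2 to 3 below, 35 to 39 signalling genes rose and 0 to 1 fell, and 6 to 7 relatives rose and 1 to 2 fell. The alternatives for the relatives were chosen after seeing the data. Depth limits the 30 members under the filter, whose libraries held 0 to 41.5 counts.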

Other observations

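Cxcl13, a ligand of B cells, was spread widely within both diets. On western diet it stood at 29.2 and 14.6 CPM in replicates 3 and 5 and between 0.237 and 3.85 CPM in the other 6 libraries. On chow it stood at 40.7, 31.7, 23.1 and 12.5 CPM in replicates 6, 2, 1 and 3 and between 1.57 and 4.89 CPM in the other 5. Its level was also set against 6 markers of resident Kupffer cells within each diet, a look chosen after its values were seen. Over these 12 relations none passed adjustment by Spearman's rho (smallest adjusted p = 0.0830, exact permutation test, two-sided), and 4 did by Pearson's r. These 4 were Timd4 and Marco on western diet (adjusted p = 0.0195 and adjusted p = 0.0266, exact permutation test) and Cd163 and Marco on chow (adjusted p = 0.0195 and adjusted p = 0.0266, exact permutation test). Without the 2 libraries farthest from the median of the marker, r was 0.72 for Timd4 and 0.19 for Marco on western diet, and 0.77 for Cd163 and 0.53 for Marco on chow. The r for Marco on western diet depended on the 2 libraries left out, which were picked by their Marco level and not by Cxcl13. Whether the libraries of a diet form separate sets in Cxcl13 was not tested, and nothing further is read from the pooled values.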
